A study of Mus musculus with 6 samples.

Results

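The genes described here are 10 genes of the endoplasmic reticulum (ER) stress response and the amino acid response, read by 19 probe sets of the 45101 on a mouse expression array. The probe sets were chosen by identifier: 2 each for Hspa5, Herpud1, Trib3, Asns and Atf4, 3 each for Xbp1 and Calr, and 1 each for Ddit3, Chac1 and Sdf2l1. The pairing of identifiers with gene names was given with the choice of probe sets and was not checked against a platform annotation. All 19 passed the filter on dim probe sets, a mean of at least 4.08 on the log2 intensity scale over all 6 arrays. Messenger RNA was compared between miR-223 null neutrophils (3 arrays) and wild-type neutrophils (3 arrays), both derived from mouse bone marrow. In both genotypes the progenitors spent 6 days in a SILAC medium with granulocyte colony-stimulating factor and stem cell factor (SCF) and a further 42 hours without SCF, and live cells were then isolated by magnetic sorting. The labels give no strain, age or sex, do not say how miR-223 was removed, and do not tell whether a replicate is another mouse, another culture or a repeat assay, and p-values therefore reflect the spread among these arrays alone, which may be technical. The level of miR-223 was not analysed here. The markers that would check the neutrophil label were not analysed either, because most probe sets carry no gene name in the sources used. In RNA taken from the sorted cells in bulk, fewer cells of a type and less RNA per cell cannot be told apart.

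When unfolded proteins collect in the ER, sensors in its membrane start the unfolded protein response: the kinase IRE1 splices Xbp1 mRNA, ATF6 is cut to release a transcription factor, and PERK phosphorylates the translation factor eIF2 alpha. Phosphorylated eIF2 alpha, which the kinase GCN2 also produces when amino acids run short, slows translation in general and favours translation of Atf4 mRNA. ATF4 then raises genes for amino acid supply and, with prolonged stress, Ddit3, while XBP1 and ATF6 raise chaperones and the machinery that removes misfolded proteins. Maturing granulocytes make large amounts of granule protein in the ER, and in the mouse Xbp1 is known to be needed for eosinophil maturation.

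The microRNA missing from the null cells is shown with its seed (bases 2 to 8) in capitals, as the part that pairs with target mRNAs.
miR-223-3p, chrX:96242884-96242905, plus strand: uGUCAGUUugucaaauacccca
Promoter windows from 250 bases before to 50 bases after the annotated start were taken for all 10 genes from RefSeq (GRCm38.p6, 1 window per gene), because promoters of this pathway are known to hold elements through which it acts. A set of 4 short elements was searched on both strands: the C/EBP-ATF response element CARE (TGATGNAA) that ATF4 binds, the XBP1-binding element UPRE (TGACGTGG), the cyclic AMP element CRE (TGACGTCA), and the CCAAT box (CCAAT). The ER stress response elements ERSE and ERSE-II are not reported here. The windows that hold a CARE are given as 30 bases around it, with the match in capitals.
Asns (CARE), chr6:7693214-7693243, minus strand: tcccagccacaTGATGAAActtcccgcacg
Trib3 (CARE, reverse strand), chr2:152344028-152344057, minus strand: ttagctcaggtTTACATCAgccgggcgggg
Chac1 (CARE, reverse strand), chr2:119351038-119351067, plus strand: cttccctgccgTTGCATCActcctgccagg
Herpud1 (CARE, reverse strand), chr8:94386306-94386335, plus strand: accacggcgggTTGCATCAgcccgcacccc
The Ddit3 promoter window, which held no CARE, UPRE or CRE, is shown because Ddit3 had the largest difference above 0 among these probe sets. Bases more than 250 before its start were not searched, so an element there would be missed.
Ddit3 (no CARE, UPRE or CRE), chr10:127290543-127290842, plus strand: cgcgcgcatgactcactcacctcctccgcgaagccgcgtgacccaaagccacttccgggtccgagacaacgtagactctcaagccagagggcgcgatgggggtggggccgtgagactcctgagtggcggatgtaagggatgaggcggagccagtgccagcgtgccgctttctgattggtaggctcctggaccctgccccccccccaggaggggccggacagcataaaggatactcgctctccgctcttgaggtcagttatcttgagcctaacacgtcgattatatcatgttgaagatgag

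CARE matched 4 of the 10 windows (Asns, Trib3, Chac1 and Herpud1), against 3.97% of 32851 promoter windows of the same length. UPRE and CRE matched 0 of 10, against 0.676% and 1.79% of all windows. The CCAAT box matched 7 of 10, against 37.4%. A match is a run of letters in the window and not a bound site, and a window without one says nothing about the factor. The CARE of Trib3 began 15 bases into the transcript, and those of Chac1, Herpud1 and Asns began 193, 112 and 23 bases before the start.

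**Figure D1:**
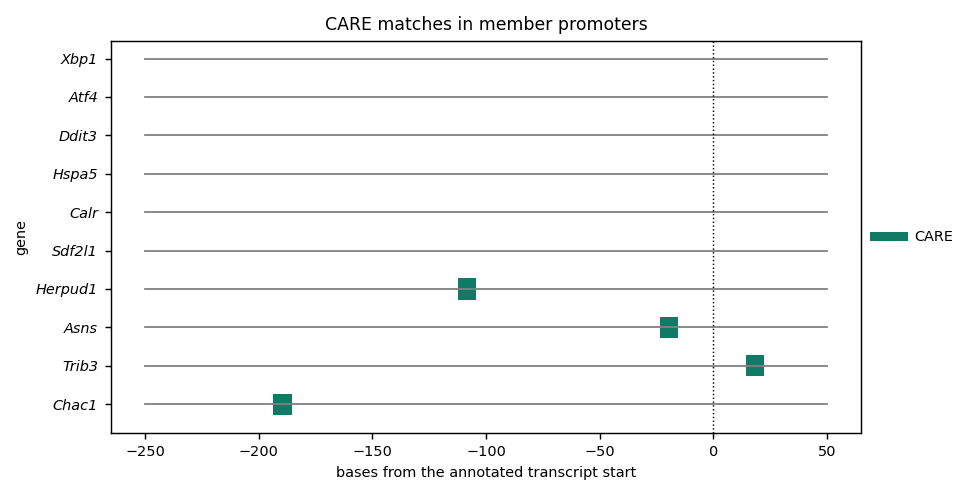
Positions of CARE matches (coloured blocks) in the promoter windows of the 10 genes, in bases from the annotated transcript start (dotted line). Asns, Trib3, Chac1 and Herpud1 hold a CARE, and the windows of the other genes hold none.

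The 6 arrays had medians between 4.71 and 4.72 (log2 intensity, control probe sets set aside). Replicate 1 was set apart in both genotypes by brighter control probe sets. The spiked poly-A controls had a mean of 8.92 (null) and 8.77 (wild-type) where the other 4 arrays had 8.16 to 8.58. The B1 repeat control, a mouse repeat sequence carried in the sample RNA, was also brighter there, at 11.34 (null) and 11.17 (wild-type), where the other 4 arrays had 10.38 to 10.65. The 3' minus 5' difference of the actin control, a measure of RNA integrity, was 0.28, 0.18 and 0.21 in null arrays and 0.26, 0.15 and 0.18 in wild-type arrays (log2 units, exact two-sided permutation p = 0.6). That of Gapdh was -0.11, -0.004 and 0.07 in null arrays and -0.09, -0.06 and -0.06 in wild-type arrays (log2 units, exact two-sided permutation p = 0.4). Between arrays of the same number, the actin difference was slightly higher in null at all 3 replicates. That of Gapdh was higher in null at replicates 2 and 3 and lower at replicate 1. The permutation test over 3 against 3 arrays cannot give less than 0.1, so it does not show that RNA integrity was equal. The part of these control values in the results below was not tested.

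The 10 stress response genes differed little between miR-223 null and wild-type neutrophils, by a median size near that of all kept probe sets. The clearest difference was a higher Ddit3 level in null cells. It passed only in some of the fits that took the replicate number as a block. Across the 27022 probe sets above the filter, limma with Benjamini-Hochberg adjustment called 0 of the 19 at an adjusted p of 0.05, beside 0.189% of all probe sets. At an unadjusted limma p under 0.05, 2 of the 19 passed (Ddit3 above and Trib3 probe set 1456225_X_AT below wild-type), beside 10.7% of all. The labels do not link same-numbered arrays of the genotypes, and their pairing was judged from the same values that were tested. With the replicate number as a block, limma called 2 of the 19, beside 10% of all probe sets (4.96% higher and 5.05% lower). The 2 called were Ddit3, higher, and Herpud1 probe set 1435626_A_AT, lower in null cells. The members' share of 10.5% is near that background. At an unadjusted p under 0.05 the blocked fit gave 9 of the 19, beside 26.2% of all probe sets.

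Differences were small and mostly below 0. The median log2 difference, null minus wild-type, was -0.08 over the 19 probe sets and -0.01 over all kept probe sets, and the median size was 0.12 and 0.11. Of the 19, 14 were below 0, beside 52.5% of all. The differences ranged from -0.42 for a Trib3 probe set to 0.36 for Ddit3. The genotypes did not overlap at 4 of the 19 probe sets, beside 16.8% of all (8.12% above and 8.68% below): Ddit3 lay above wild-type, and both Asns probe sets and 1 of Trib3 lay below. All 3 replicate pairs moved one way at 12 of the 19, beside 46.6% of all. Probe sets of 1 gene share their target and are not independent in these counts.

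**Figure D2:**
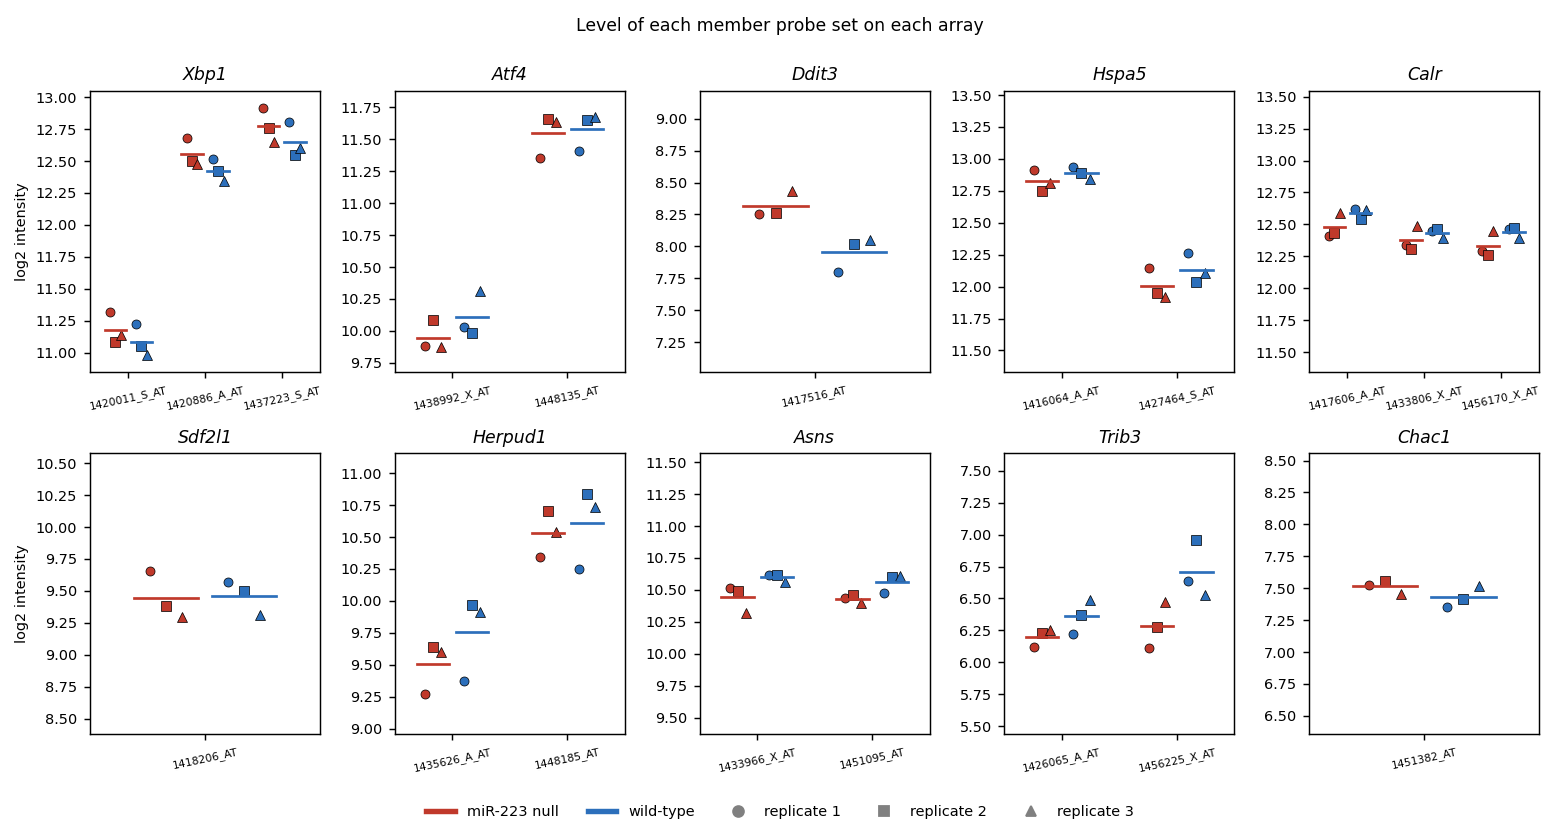
Log2 intensity of each of the 19 probe sets on each array, in panels by gene that span an equal height, with miR-223 null arrays (red) left of wild-type arrays (blue), symbols for replicate numbers and lines at group means. Ddit3 is higher on all null arrays, and the replicate 1 arrays (circles) are low for Herpud1 and high for Xbp1 in both genotypes.

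Among the transcription factors, Ddit3 was the member with the clearest difference. Ddit3 encodes CHOP, a transcription factor of prolonged ER stress that pairs with C/EBP proteins. Its probe set 1417516_AT read 8.25, 8.26 and 8.43 in null arrays, against 7.80, 8.02 and 8.05 in wild-type arrays (log2 intensity, replicates 1 to 3). Every null array was above every wild-type array. The mean was 8.32 ± 0.10 in null and 7.96 ± 0.14 in wild-type arrays (SD, n = 3 each), a 1.28-fold higher level (95% confidence interval 1.06 to 1.55). The log2 difference of 0.36 (SE 0.12) did not pass without the block (limma adjusted p = 0.336) and passed with it (SE 0.07, limma adjusted p = 0.0248). The exact two-sided permutation p over the 6 arrays was 0.1, the smallest that 3 against 3 can give. Pair by pair, null exceeded wild-type by 0.45 (replicate 1), 0.24 (replicate 2) and 0.38 (replicate 3). The blocked call was lost without the replicate 1 pair (limma adjusted p = 0.079), without the replicate 2 pair (0.0851) and without the intensity trend in the variance (0.0837), while the difference stayed between 0.31 and 0.42 when a pair was left out.

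Xbp1, the transcription factor made active by IRE1 splicing, lay slightly above wild-type at all 3 of its probe sets, and none passed in either fit. Probe set 1420886_A_AT read 12.68, 12.50 and 12.48 in null arrays, against 12.51, 12.42 and 12.34 in wild-type arrays (log2 intensity). The groups overlapped, because wild-type 1 was above null 2 and null 3. Its log2 difference was 0.13 (SE 0.08; 95% confidence interval -0.05 to 0.31), with a limma adjusted p of 0.622 without the block and 0.0599 with it. Probe sets 1420011_S_AT and 1437223_S_AT differed by 0.10 and 0.12 (log2; limma adjusted p with the block 0.212 and 0.0913). Without null 1 the difference was 0.063 at 1420886_A_AT, 0.027 at 1420011_S_AT and 0.054 at 1437223_S_AT, and over all single arrays left out it reached at most 0.17, 0.16 and 0.20. All 3 probe sets were higher in null cells in 3 of 3 pairs, and the spliced and unspliced forms of the mRNA were not told apart here.

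Atf4, the transcription factor controlled mainly through its translation, showed no difference that passed. Probe set 1448135_AT read 11.36, 11.66 and 11.64 in null arrays, against 11.41, 11.65 and 11.68 in wild-type arrays (log2 intensity). The replicate 1 arrays were lowest in both genotypes and the groups overlapped throughout. Its log2 difference of -0.03 had a 95% confidence interval from -0.29 to 0.23 (limma adjusted p = 0.967). Probe set 1438992_X_AT read 9.88, 10.08 and 9.88 in null arrays, against 10.03, 9.99 and 10.32 in wild-type arrays, a log2 difference of -0.16 (95% confidence interval -0.44 to 0.11; limma adjusted p = 0.699). Without wild-type 3 the difference was -0.06, and in the blocked fit it was -0.03 without the replicate 3 pair and -0.29 without the replicate 2 pair. Wild-type 3 stood highest at that probe set, and null 2 was above wild-type 1 and wild-type 2.

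The 3 ER chaperone genes lay at or slightly below wild-type at all 6 of their probe sets, with log2 differences from -0.13 to -0.01, and 0 of the 6 passed in either fit. Hspa5 encodes BiP, the main Hsp70 chaperone of the ER and a brake on the stress sensors. Its probe set 1427464_S_AT read 12.14, 11.95 and 11.92 in null arrays, against 12.26, 12.04 and 12.10 in wild-type arrays (log2 intensity). Each null array was below the wild-type array of its number, and the groups overlapped because null 1 was above wild-type 2 and wild-type 3. The log2 difference was -0.13 (SE 0.09; 95% confidence interval -0.33 to 0.08), with a limma adjusted p of 0.678 without the block and 0.0719 with it. Probe set 1416064_A_AT of Hspa5 read 12.91, 12.75 and 12.82 in null arrays, against 12.94, 12.89 and 12.85 in wild-type arrays, a log2 difference of -0.07 (95% confidence interval -0.20 to 0.07; limma adjusted p = 0.770).

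Calr encodes calreticulin, a calcium-binding chaperone of newly made glycoproteins. Its probe set 1417606_A_AT read 12.41, 12.44 and 12.59 in null arrays, against 12.62, 12.54 and 12.61 in wild-type arrays (log2 intensity). Null 1 and null 2 were below all wild-type arrays, and null 3 lay among them. The log2 difference was -0.11 (95% confidence interval -0.26 to 0.04; limma adjusted p = 0.614). The other two Calr probe sets, 1433806_X_AT and 1456170_X_AT, differed by -0.06 and -0.11 (limma adjusted p = 0.838 and 0.632). In both, null 3 was above wild-type 3 while null 1 and null 2 were below their wild-type counterparts.

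Sdf2l1, an ER-resident protein that works in complexes with BiP, had the smallest difference of the 19. It read 9.66, 9.38 and 9.30 in null arrays, against 9.57, 9.50 and 9.31 in wild-type arrays (probe set 1418206_AT, log2 intensity). The replicate 1 array was the highest of its genotype on both sides, and the range of the null arrays enclosed that of the wild-type arrays. The log2 difference was -0.01 with a 95% confidence interval from -0.31 to 0.28 (limma adjusted p = 0.986), so levels from 0.807 to 1.22 times those of wild-type cells lay within its interval.

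Herpud1, an ER membrane protein of the pathway that extracts and degrades misfolded proteins, gave a lower value in null cells at 1 of its 2 probe sets in the blocked fit. Probe set 1435626_A_AT read 9.27, 9.64 and 9.60 in null arrays, against 9.37, 9.97 and 9.91 in wild-type arrays (log2 intensity). The replicate 1 arrays were the lowest of both genotypes, so the groups overlapped, although each null array was below the wild-type array of its number. The mean was 9.50 ± 0.20 in null and 9.75 ± 0.33 in wild-type arrays (SD, n = 3 each), a log2 difference of -0.25 (SE 0.18; 95% confidence interval -0.67 to 0.17). Leaving out 1 array moved that difference to -0.13 (without null 1), -0.14 (without wild-type 2) or -0.44 (without wild-type 1), and the other 3 such values lay between. It did not pass without the block (limma adjusted p = 0.704) and passed with it (SE 0.06, limma adjusted p = 0.0482). The blocked call was lost after quantile normalization (0.0632), with no filter (0.0567), without the intensity trend (0.155), without the replicate 2 pair (0.29) and without the replicate 3 pair (0.101). Without the replicate 1 pair the log2 difference was -0.32 and the blocked fit called it (limma adjusted p = 0.0282). The fit on the same 4 arrays with no block, chosen after seeing the data, called it too (0.0496). The second probe set, 1448185_AT, read 10.34, 10.71 and 10.54 in null arrays, against 10.25, 10.84 and 10.74 in wild-type arrays, a log2 difference of -0.08 that passed in neither fit (limma adjusted p = 0.925, and 0.489 with the block).

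**Figure D3:**
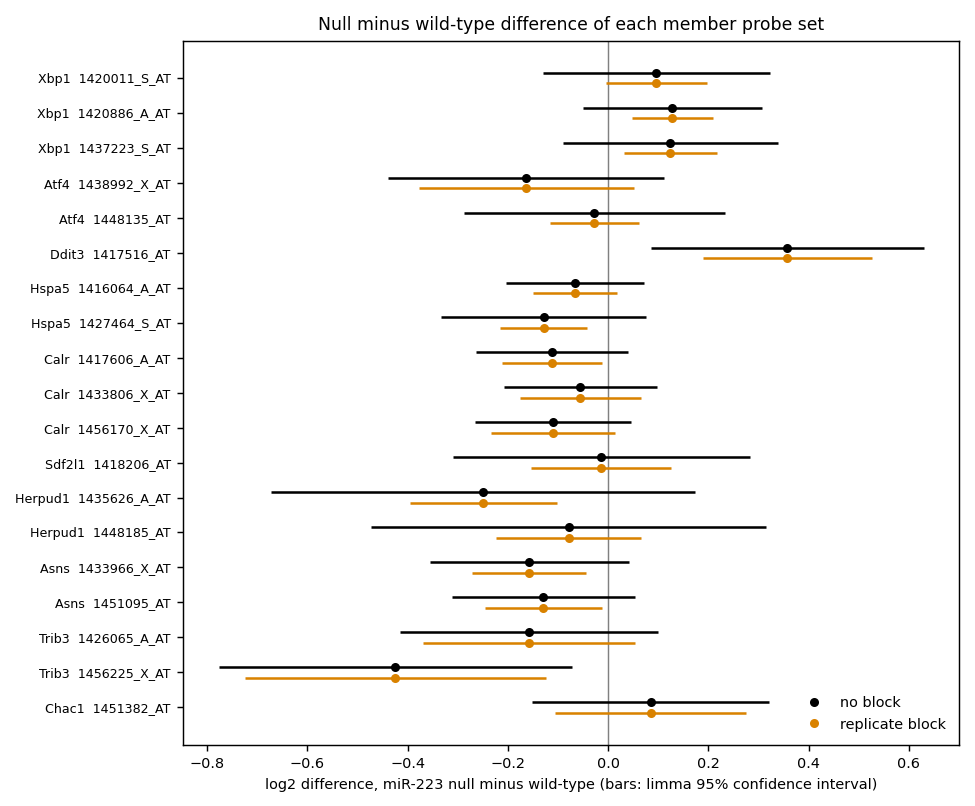
Log2 difference, miR-223 null minus wild-type, of each of the 19 probe sets, with limma 95% confidence intervals that are not adjusted for the number of probe sets, without a block (black) and with the replicate number as a block (orange). Ddit3 at 0.36 and Trib3 probe set 1456225_X_AT at -0.42 are farthest from 0, and the intervals of the other probe sets without the block include 0.

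Of the 5 probe sets for effectors of the amino acid and integrated stress responses, 0 passed in either fit, and 4 lay below wild-type. Asns encodes asparagine synthetase, which makes asparagine from aspartate and glutamine and is a standard readout of amino acid shortage. Its probe set 1433966_X_AT read 10.52, 10.49 and 10.32 in null arrays, against 10.62, 10.62 and 10.56 in wild-type arrays (log2 intensity). Probe set 1451095_AT read 10.44, 10.46 and 10.40 in null arrays, against 10.48, 10.60 and 10.61 in wild-type arrays. At both probe sets every null array was below every wild-type array, though at 1451095_AT null 2 and wild-type 1 differed by little. The log2 differences were -0.16 (SE 0.09; 95% confidence interval -0.36 to 0.04) and -0.13 (SE 0.08; 95% confidence interval -0.31 to 0.05). The limma adjusted p was 0.576 and 0.628 without the block, and 0.0852 and 0.15 with it.

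Trib3, a pseudokinase induced by ATF4 and CHOP that restrains their activity, had the difference farthest below 0. Probe set 1456225_X_AT read 6.11, 6.28 and 6.47 in null arrays, against 6.64, 6.96 and 6.53 in wild-type arrays (log2 intensity). The groups did not overlap, but null 3 and wild-type 3 were close, and the pairs of replicates 1, 2 and 3 differed by -0.53, -0.68 and -0.06. The log2 difference was -0.42 (SE 0.15; 95% confidence interval -0.78 to -0.07), a level 0.745 times that of wild-type cells, with a limma adjusted p of 0.373 without the block and 0.0822 with it. Without the replicate 3 pair the blocked difference was -0.61 and passed (limma adjusted p = 0.0185), and without the replicate 2 pair it was -0.29 (0.377). The second probe set, 1426065_A_AT, read 6.12, 6.23 and 6.25 in null arrays, against 6.22, 6.37 and 6.49 in wild-type arrays, a log2 difference of -0.16 (95% confidence interval -0.42 to 0.10; limma adjusted p = 0.688).

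Chac1, an enzyme induced through ATF4 that breaks down glutathione, was slightly above wild-type. It read 7.53, 7.56 and 7.46 in null arrays, against 7.35, 7.41 and 7.52 in wild-type arrays (probe set 1451382_AT, log2 intensity). Null 3 was below wild-type 3, against the direction of the other two pairs. The log2 difference was 0.08 (SE 0.10; 95% confidence interval -0.15 to 0.32; limma adjusted p = 0.841).

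The estimated genotype difference varied in size between probe sets of the same gene at some genes, and the permutation test used could call no such gap. Of 11 pairs of probe sets within a gene, the widest gaps between the 2 log2 differences were 0.27 for Trib3 (probe set 1426065_A_AT minus 1456225_X_AT), -0.17 for Herpud1 (probe set 1435626_A_AT minus 1448185_AT) and -0.14 for Atf4 (1438992_X_AT minus 1448135_AT). By replicate pair the Herpud1 gap was -0.19, -0.20 and -0.12, with one sign in 3 of 3 pairs. A smaller gap between Calr probe sets (1433806_X_AT minus 1456170_X_AT) also kept one sign, at 0.07, 0.05 and 0.04 (exact two-sided permutation p = 0.1). The Trib3 gap was 0.42, 0.55 and -0.17, and the Atf4 gap was -0.09, 0.09 and -0.40, so both changed sign between pairs. The exact two-sided permutation p over the 6 arrays was 0.3 for Trib3, 0.1 for Herpud1 and 0.3 for Atf4. Adjusted over the 11 pairs, these permutation p-values were 0.66, 0.55 and 0.66. A value of 0.1 is the smallest that this test can give, so it cannot show whether the probe sets of a gene differ.

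Several of these genes differed with the replicate number by as much as, or more than, they did with genotype. Herpud1 was lower on the replicate 1 array than on the mean of replicates 2 and 3, by -0.35 in null and -0.57 in wild-type arrays at 1435626_A_AT (log2), and by -0.28 and -0.54 at 1448185_AT. Atf4 probe set 1448135_AT was also lower, by -0.29 in null and -0.26 in wild-type arrays. The 3 Xbp1 probe sets were higher on replicate 1, by 0.20 to 0.21 in null and 0.13 to 0.23 in wild-type arrays, as was Sdf2l1 by 0.32 in null and 0.16 in wild-type arrays. Hspa5 probe set 1427464_S_AT was higher by 0.21 in null and 0.19 in wild-type arrays. For Ddit3 the replicate 1 array was lower by -0.10 in null and -0.24 in wild-type arrays, which is smaller than its genotype difference of 0.36. The replicate 1 shift had one sign in both genotypes at 14 of the 19 probe sets (73.7%), beside 74.5% of all kept probe sets, and its median size was 0.13 in null and 0.13 in wild-type arrays, beside 0.20 and 0.18 over all. The shift was therefore no more common among these genes than on the array as a whole, and what the replicate number stands for is not given in the labels.

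**Figure D4:**
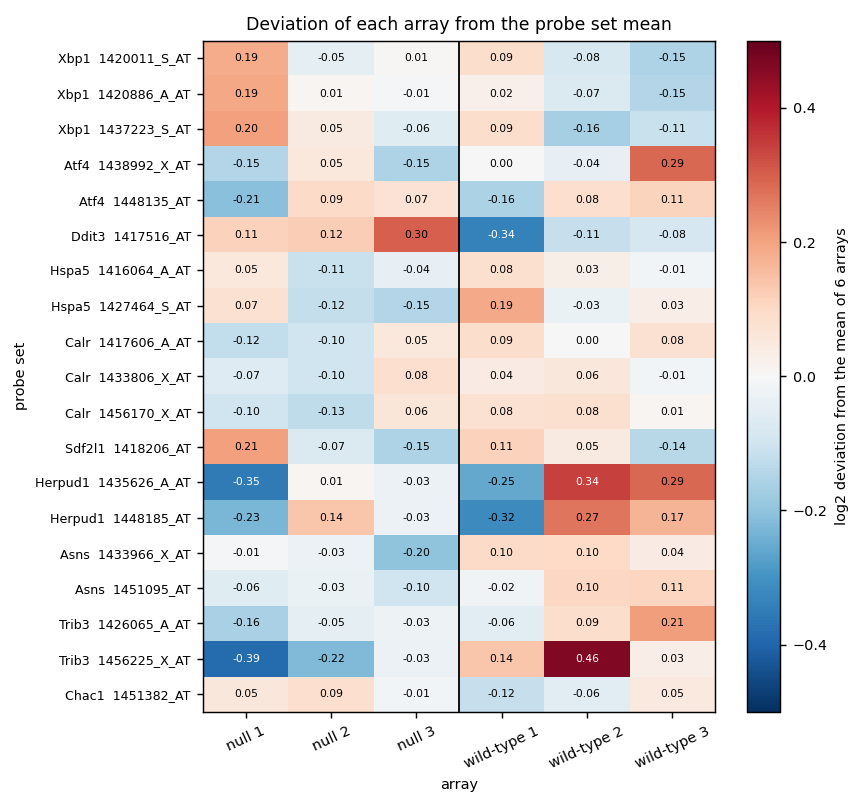
Deviation of each array from the mean of the 6 arrays at each of the 19 probe sets (log2 units, colour and printed value), with miR-223 null arrays left of wild-type arrays. Herpud1 is below its mean on both replicate 1 arrays at 1435626_A_AT (-0.35 and -0.25), and Ddit3 is above its mean on the 3 null arrays (0.11 to 0.30) and below it on the 3 wild-type arrays.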

How the data were processed

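The deposited table holds log2 intensity values, 1 per probe set and array, for 45101 probe sets on 6 arrays. Per the submitters' processing notes the software was GCOS; how background was corrected and how arrays were normalized and probes combined is not given in the sources used here. The unit of the values, log2, was inferred from their range (array maxima of 14.98 to 14.99) and matched medians. They were used as deposited. A normalization that equalises arrays removes any change in total mRNA, which leaves only relative differences.

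Groups and replicate numbers came from the sample titles. The 64 manufacturer's control probe sets were set aside, and of the remaining 45037 the 27022 with a mean at or above the 40th percentile entered limma 3.58.1 under R 4.3.3 (lmFit and eBayes, variance with an intensity trend, two-sided, Benjamini-Hochberg over all 27022). The fit has no covariates, and the replicate number as a block is its alternative. The number of arrays limits the precision. Same numbers were treated as pairs, though the labels do not link them, because deviations from the group mean correlated between them. The correlation was 0.70, 0.30 and 0.48 for same-numbered pairs 1, 2 and 3. It comes from the same values that were tested, and the blocked calls and pair counts rest on it. Null 2 correlated with wild-type 3 at 0.215. Null 3 also correlated with wild-type 2 at 0.41, so the data set replicate 1 apart but do not settle how 2 and 3 pair. Single values were compared with exact permutation tests. The fit without a block was checked on simulated data with independent noise and no shared replicate shift. The blocked fit was not checked in that way.

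The members and gene lists were chosen with earlier results of these data known. The rule for named genes was to give all 10 genes with their 19 probe sets, and other pathway genes past the threshold. The lists of other pathway genes and of cell type markers, and the alternative of 1 value per gene, were not run because the sources used here pair no other probe sets with genes. Promoters and the microRNA came from RefSeq tables (GRCm38.p6), which matched all 10 genes.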

Additional observations from a re-analysis of the deposited data

How the results depend on the processing

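Of 20 alternatives, the count of called members was 0 in every one without a block, leaving out single arrays included, except that it was 1 without both replicate 1 arrays, an alternative chosen after seeing the data. It was 2 with the replicate block, 3 with the block and the stricter filter at the 60th percentile, 1 with the block after quantile normalization, 1 with the block and no filter and 0 with the block and no intensity trend. Leaving out 1 pair from the blocked fit gave 0 to 4. The count over all probe sets, 51 in the fit without a block, was 2703 with the replicate block, 2566 with the block after quantile normalization, 2455 with the block and no filter, 3052 with the block and the stricter filter, 191 with the block and no intensity trend and 1072 without both replicate 1 arrays. Leaving out 1 array gave 0 to 58 (0 without null 2 or wild-type 2, with 2064 and 1753 at an unadjusted limma p under 0.05), and leaving out 1 pair from the blocked fit gave 606 (without replicate 2), 2045 (without replicate 1) and 2319 (without replicate 3). The cause was not tested.

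The block changed the calls of Ddit3 and of Herpud1 1435626_A_AT and of no other member. Single differences changed direction in 10 of 380 refits, all of them near 0 and none called. Leaving out 1 array moved the difference by over 1.5 times, or across 0, at 15 of the 19 probe sets, and did not at Ddit3 1417516_AT, Calr 1417606_A_AT, Asns 1451095_AT and Trib3 1456225_X_AT. Leaving out 1 array moved Sdf2l1 1418206_AT over -0.12 to 0.060 (above 0 without null 2, null 3, wild-type 1 or wild-type 2), Herpud1 1448185_AT over -0.26 to 0.036 (above 0 without null 1 or wild-type 2) and Atf4 1448135_AT over -0.11 to 0.070 (above 0 without null 1, wild-type 2 or wild-type 3). Leaving out 1 pair from the blocked fit moved Sdf2l1 1418206_AT over -0.07 to 0.038 (above 0 without replicate 2). Calls gained without the replicate 3 pair in the blocked fit were Calr 1456170_X_AT, Xbp1 1437223_S_AT and Trib3 1456225_X_AT (limma adjusted p = 0.0229, 0.0467 and 0.0185), and Xbp1 1420886_A_AT passed with the block and the stricter filter (0.0427). How signal over background limits these differences was not tested.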
